A study of Mus musculus with 12 samples.

Results

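The effect of the milk diet that was common to the intraepithelial and lamina propria layers of the small intestine was examined in sorted group 3 innate lymphoid cells (ILC3s). Of the 23284 genes in the expression table, 12502 were compared, those that reached 1 FPKM in 3 or more of the 12 libraries. FPKM is the number of fragments per kilobase of transcript and per unit of sequencing depth, so levels are per length. The comparison set 6 libraries of PA milk mice against 6 of normal milk mice (ND), with the layer as a covariate, and each group held 3 intraepithelial (IEL) and 3 lamina propria (LP) libraries. All mice were HR-1, a hairless strain, and were 18 weeks old. Mothers that nursed the PA milk mice ate chow enriched in palmitic acid, and those of the ND mice ate normal chow. By the study's account the nursed pups came from mothers on normal chow and returned to normal food at weaning, so that the diets of the groups differed only while they were nursed. The study describes a swap of pups to other mothers for PA milk and states none for the ND group. If ND pups stayed with their own mothers, fostering went with PA milk. The sources do not say whether a library came from 1 mouse or from pooled mice, nor whether an IEL and an LP library with the same number came from 1 mouse. The p-values therefore measure the spread between these libraries.

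ILC3s are lymphocytes without antigen receptors that sit below and within the gut epithelium. They secrete IL-22 and IL-17, and IL-22 acts through STAT3 in epithelial cells to switch on antimicrobial proteins. Among these are the Reg3 proteins, C-type lectins that epithelial cells release into the lumen and that keep bacteria away from the gut wall. Goblet cells add mucus and its accompanying proteins to the same barrier. Palmitic acid is a long-chain saturated fatty acid of milk fat.

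Reg3b, which encodes the lectin RegIIIβ, was the single gene that passed the test across all genes. It lies on chromosome 6 beside Reg3a, Reg1 and Reg3g, and the 4 genes together span 98216 bases (mm10, chr6:78370657-78468872). The sequences upstream of the RefSeq starts of Reg3b and of its neighbour Reg3g, on the same assembly (GRCm38.p6), are shown because both genes were far lower in the PA libraries. Each is 154 bases long, ends 22 bases before the RefSeq start and is given 5′ to 3′ on the strand of the gene. They are from chr6:78370710-78370863 (forward strand) for Reg3b and chr6:78468896-78469049 (reverse strand) for Reg3g. The span above is from GENCODE, whose entry for Reg3b begins further upstream, at 78370657. By that annotation the Reg3b stretch lies within the gene, and all distances given here are from the RefSeq start. Capitals mark matches, on either strand, to TTCNNNGAA, the letters that STAT factors can bind, and to TATAAA, the TATA box.
Reg3b: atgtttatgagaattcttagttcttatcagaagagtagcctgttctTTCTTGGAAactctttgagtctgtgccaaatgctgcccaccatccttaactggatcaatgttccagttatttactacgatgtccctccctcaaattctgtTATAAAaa
Reg3g: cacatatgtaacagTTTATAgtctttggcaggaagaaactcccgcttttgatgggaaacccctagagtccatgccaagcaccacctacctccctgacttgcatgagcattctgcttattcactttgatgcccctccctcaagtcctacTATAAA
The Reg3b stretch held TTCTTGGAA at 129 to 121 bases before the start and TATAAA at 29 to 24 bases. In Reg3g, TATAAA stood at 27 to 22 bases before the start and its reverse complement at 161 to 156 bases, and TTCNNNGAA was not in the window. Over the 250 bases before the start, 7.02% of 32851 RefSeq promoters held TTCNNNGAA and 12.4% held TATAAA. Without gaps, the 2 promoters were identical at 53.2% of the 248 positions compared. The Reg genes are related copies, so reads could have been divided between them in the counting.

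The libraries were made from very small amounts of RNA by full-length cDNA amplification without molecular identifiers, and differed in how many genes they held. Their depth, worked out from the steps between low FPKM values, was 8810689 to 14557139 reads. PA IEL 2 had 4390 genes at 1 FPKM or more, PA LP 2 had 5637 and ND IEL 2 had 7863, against 8406 to 11378 in the other 9. The mean difference, PA minus ND, was -2080.2 such genes (exact permutation within layers, two-sided p = 0.15). The genes of the sort markers were uneven: Thy1 was at 1 FPKM or more in 7 of the 12 libraries, Il2ra (CD25) in 8, Nrp1 in 10 and Ptprc (CD45) in 11. Cd4 was at 1 FPKM or more in 11 libraries. The gate is given as CD4-positive in the methods of the study and as CD45-positive in a legend. Of 25 ILC3 identity genes, 2 to 20 reached 1 FPKM in a PA library and 9 to 24 in an ND library. The sort removed cells with T and B cell markers, yet Cd3e reached 1 FPKM in 7 libraries and Cd79a in 7. The lineage markers of the study also held CD11b and Gr-1, found on myeloid cells. Lyz2, a gene of such cells, was at 82.3 to 10375.5 FPKM, above 1 FPKM in all 12 libraries. Epcam, a defining epithelial gene, was at 41.9 FPKM or more in 11 libraries and at 0.196 in PA IEL 2. In such sorted pools, fewer cells of a type and less RNA per cell cannot be told apart.

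Across genes, the shared difference leaned to lower levels in PA libraries. On the log2(FPKM + 1) scale, on which all fold changes here are given and which understates changes of low genes, 8370 genes (66.9%) were lower in PA and 4132 (33.1%) were higher, with a median of -0.36. The lean was -0.30 in the IEL libraries and -0.36 in the LP libraries. Without the PA libraries numbered 2, which held the fewest genes, 50.6% of genes were lower and the median was -0.01. With limma and a Benjamini-Hochberg adjusted p under 0.05, 1 gene was lower (0.008% of those tested) and 0 were higher (0%). Voom on the reads worked out from FPKM called 2 genes, Reg3b not among them. The next smallest adjusted p was 0.615. At an unadjusted p under 0.05 there were 729 lower genes (5.83%) and 87 higher genes (0.696%). The median standard error of a gene's difference was 0.86, so most differences of a few fold were not detectable at this replication.

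The layers can be set side by side without a model, since their differences come from separate libraries. Both layers had a lower mean in PA for 4884 genes (39.1%) and a higher mean for 1947 (15.6%), while 5432 (43.4%) had opposite signs. A difference of -1 or less was found in both layers for 1470 genes (11.8%) and of 1 or more for 168 (1.34%). In 59 genes (0.472%) every PA library was below every ND library of its layer, in IEL and in LP alike. The converse, every PA library above, was seen for 23 genes (0.184%), and for 30 genes (0.24%) the diets stood apart in both layers but in opposite directions. Without the PA libraries numbered 2, which makes separation easier, the balance was the other way, with 114 lower and 168 higher genes apart in both layers, and 3255 genes had a lower and 3036 a higher mean in both. The 59 lower genes had a median mean FPKM of 7.26 over the 12 libraries, against 13.1 for all genes tested, and 10 of them were under 1 FPKM in every PA library. The 23 higher genes were more abundant, with a median mean FPKM of 54.5.

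**Figure D1:**
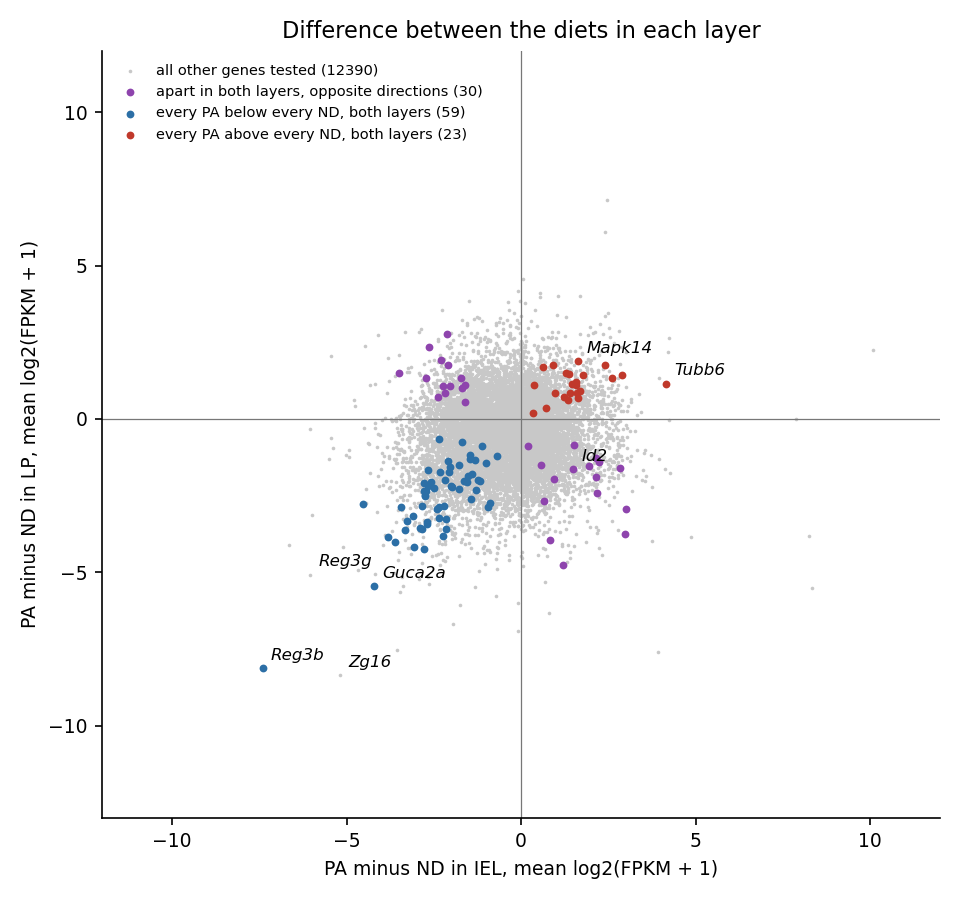
Difference between the diets (PA minus ND, mean log2(FPKM + 1)) in the IEL libraries on the x axis and in the LP libraries on the y axis, 1 point per gene tested. Blue points are the 59 genes and red points the 23 genes whose diets do not overlap in either layer, purple points are the 30 that stand apart in opposite directions, and Reg3b lies at -7.41 and -8.12.

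Reg3b was the most abundant gene of ND IEL 1 and ranked between 3 and 371 in the other ND libraries. It was far lower in the PA libraries, at 2.25 to 1431 FPKM, but above 1 FPKM in each. In IEL it was at 28.0, 2.25 and 1431 FPKM in the PA libraries and at 22959, 2728 and 10526 in the ND libraries. In LP it was at 2.68, 3.31 and 10.5 FPKM with PA milk and at 308, 7447 and 1704 with normal milk. Every PA library was below every ND library of its layer, and the nearest pair in IEL was PA IEL 3 and ND IEL 2. Reg3b fell by 7.76 on the log2 scale (SE 1.10, adjusted p = 0.0264, limma over 12502 genes). The difference was -7.41 in IEL, where the ND mean FPKM was 24.8 times the PA mean, and -8.12 in LP, where it was 575 times the PA mean. The call held without PA IEL 3, without ND IEL 2 and without ND LP 1, and was lost without each of the other 9 libraries (difference -8.87 to -6.92, adjusted p-values in limma up to 0.24). Without the PA libraries numbered 2, its difference was -6.67 with an adjusted p of 0.749.

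Reg3g, whose protein RegIIIγ acts on Gram-positive bacteria, had the same order in IEL but not in LP. Its IEL values were 327, 2.44 and 530.3 FPKM with PA milk and 12233, 2645 and 5490.4 with normal milk. In LP, Reg3g was at 25.2, 0.644 and 26.0 FPKM in PA and at 11.3, 3741 and 953 in ND. The LP groups overlapped because ND LP 1 was low, and the shared difference of -5.56 (SE 1.32) had an adjusted p of 0.619 in limma. Reg3a, a further antimicrobial lectin, was at 0 in 3 of the 6 PA libraries and above 60 FPKM in 5 of the 6 ND libraries, with PA IEL 3 at 252 (shared difference -4.63, SE 1.36). Reg1, a lectin linked to epithelial regeneration, did not separate by diet, and its highest level, 4879 FPKM, was in PA IEL 3 (shared difference -0.82, SE 1.21). Reg4, a secreted lectin, had a shared difference of -1.42. All 5 Reg genes tested were below 0 and 3 of them had an unadjusted p under 0.05, beside 5.83% of all genes. The members were lower in both layers at the median, -5.09 in IEL and -4.17 in LP. Reg2 and Reg3d were listed at 0 in all 12 libraries.

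**Figure D2:**
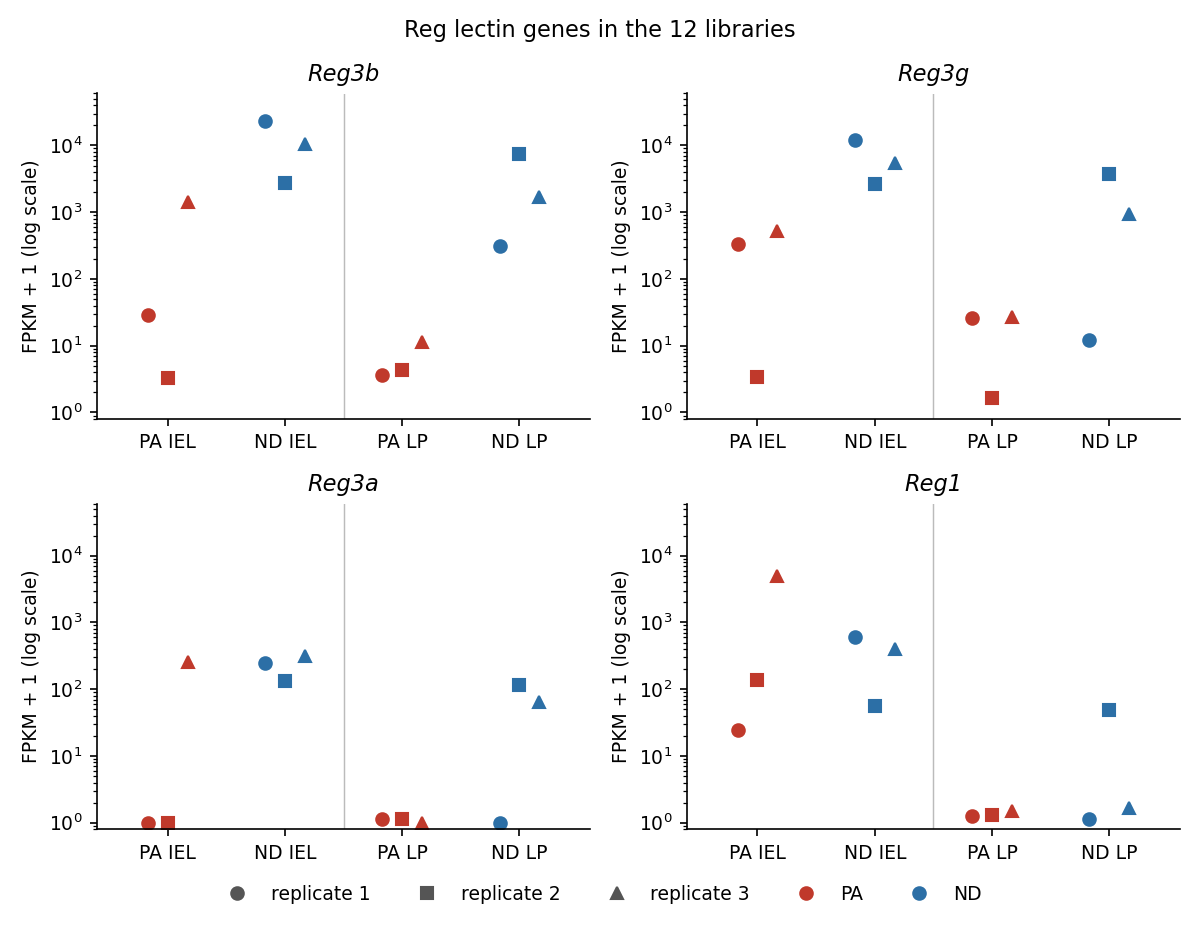
FPKM + 1 on a log scale for Reg3b, Reg3g, Reg3a and Reg1 in each of the 12 libraries, 1 point per library, with PA in red, ND in blue and the symbol giving the replicate number. For Reg3b the 3 PA points lie below the 3 ND points in both layers, for Reg3g in IEL alone, and Reg1 has its highest point, 4879 FPKM, in PA IEL 3.

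The expression of Il22, the cytokine upstream of the Reg3 genes, overlapped between the diets in both layers. It was at 565, 0.248 and 104 FPKM in PA IEL against 81.5, 0.177 and 144 in ND IEL. In LP, Il22 was under 0.5 FPKM in all 3 PA libraries and at 0.164, 4339 and 198 in ND. ND LP 2 had the highest Il22 of all libraries and the highest Reg3b in LP, and both genes were low in all 3 PA LP libraries. ND LP 1 had Reg3b at 308 FPKM with Il22 near 0, and PA IEL 1 had Il22 at 565 FPKM with Reg3b at 28.0. The part of Il22 in the level of Reg3b was not tested. The shared difference of Il22 was -2.76 (SE 1.99, adjusted p = 0.813, limma).

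Epithelial transcripts in general were also lower in PA libraries, and these values stand beside every Reg result. The 26 pan-epithelial genes, such as keratins and adhesion molecules, were all lower in PA, with a median of -2.08 against -0.36 over all genes. Of them 19 had an unadjusted p under 0.05, beside 5.83% of all genes, and 0 passed after adjustment. In both layers 25 were lower, beside 39.1% of all genes. Between 13 and 24 of the 26 reached 1 FPKM in a PA library and 25 or 26 in an ND library. As a share of all FPKM the list held 1.49, 0.228 and 2.26% in PA IEL against 2.83, 1.68 and 2.25% in ND IEL. In LP the share was 0.406, 0.544 and 0.0962% with PA milk and 0.968, 0.752 and 1.68% with normal milk. Only PA IEL 3, at 2.26%, reached the range of its ND counterparts, and in that library Reg3b was at 1431 FPKM against 2728 to 22959 in ND IEL. Its share of Paneth cell genes, 0.00645%, was below the 0.0492 to 0.527% of ND IEL. Its goblet share (0.0468%) lay within 0.0139 to 0.878% and its enterocyte share (8.78%) within 2.89 to 12.8%. The pan-epithelial share differed by -1.60 on the log2 scale (exact permutation within layers, p = 0.015), and its adjusted p over 17 marker lists was 0.128. The part of epithelial RNA in the result for Reg3b was not tested.

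Single pan-epithelial genes had smaller differences than Reg3b. Krt8, a keratin of simple epithelia, was at 1385, 462 and 3461 FPKM in PA IEL against 3145, 2227 and 2252 in ND IEL. In LP, Krt8 was at 216, 492 and 121 FPKM in PA and 1047, 721 and 1509 in ND, and its shared difference was -1.55 (SE 0.43, adjusted p = 0.639, limma). Anxa4, a calcium-dependent membrane-binding protein, was the single pan-epithelial gene without overlap in either layer, at 14.6 to 370.5 FPKM in PA and 135 to 1356 in ND (shared difference -2.10, SE 0.52). It is named after its values were seen. The 28 enterocyte genes tested were all lower as well, with a median of -1.41. Of these, 7 had an unadjusted p under 0.05, beside 5.83% of all genes. Their share of FPKM differed by -1.43 on the log2 scale with p = 0.14 (exact permutation). Enzymes of xenobiotic metabolism in the gut were lower in 24 of 26 cases (median -1.55), and transporters of water, ions and nutrients in 18 of 21 (median -1.73). These medians were -0.64 and -0.99 without the PA libraries numbered 2, and without PA IEL 2 alone they were -0.78 and -0.93.

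**Figure D3:**
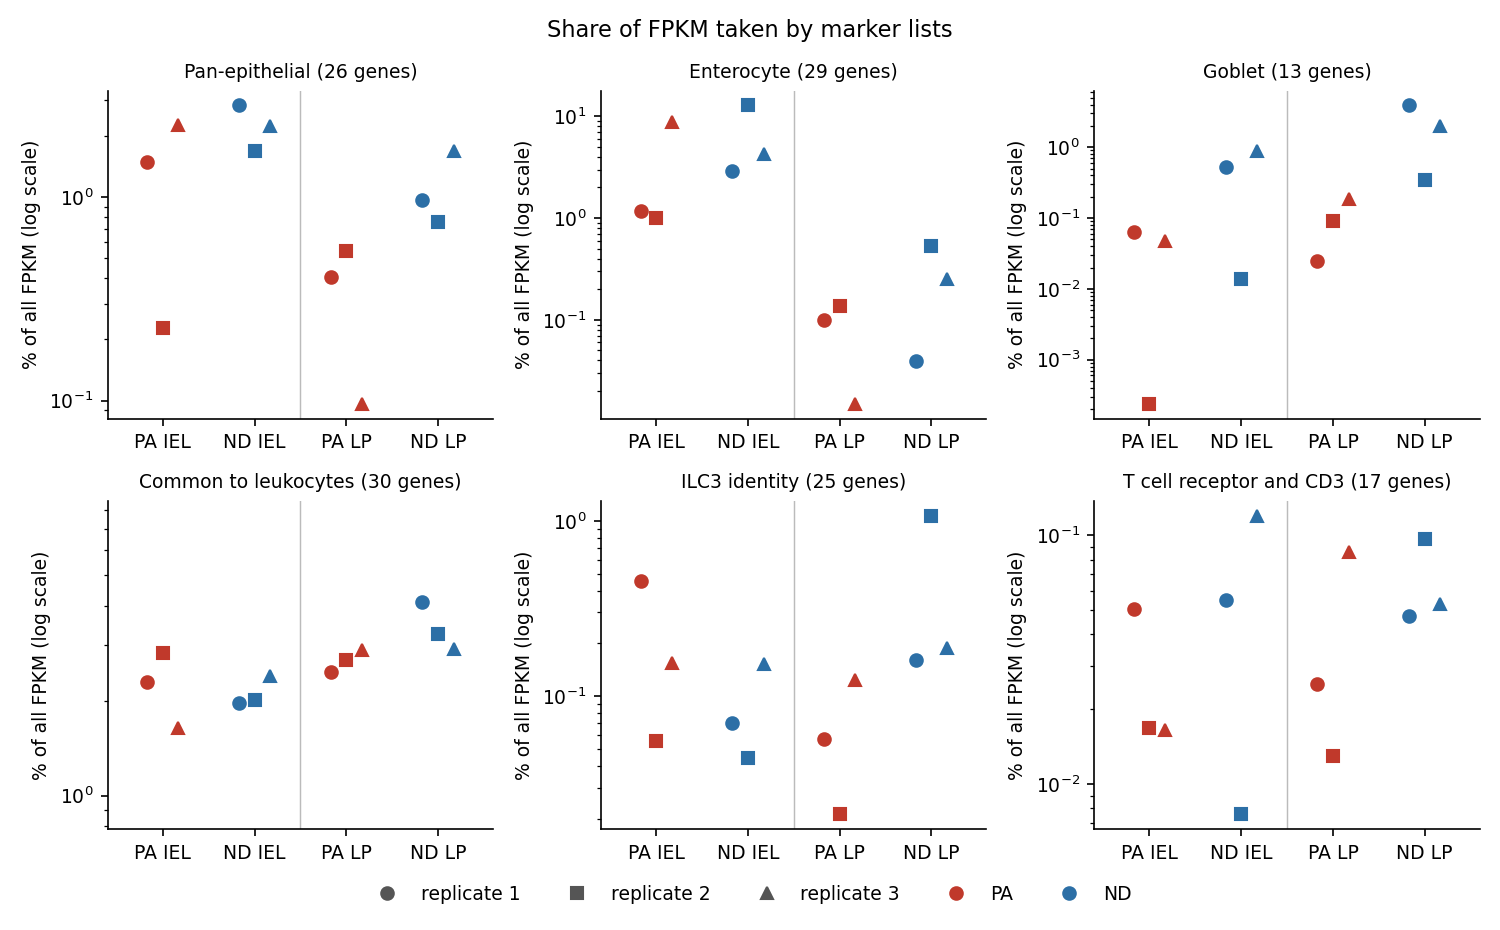
Share of all FPKM, in percent on a log scale, taken by 6 marker lists in each of the 12 libraries, with PA in red and ND in blue. Pan-epithelial genes lie lower in 5 of 6 PA libraries than in every ND library of their layer, and genes common to leukocytes, at 1.64 to 4.1%, in 4 of 6, including all 3 PA LP libraries.

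Secreted proteins of goblet cells also had wide differences. Zg16, a lectin-like protein of the mucus that binds Gram-positive bacteria, was at 47.8, 0.51 and 113 FPKM in PA IEL against 1721, 82.5 and 2870.1 in ND IEL. In LP, Zg16 was at 0.364, 0.639 and 330.5 FPKM with PA milk and at 3418, 1141 and 6747 with normal milk. Its LP groups did not overlap and its IEL groups did, since ND IEL 2 was below PA IEL 3. The shared difference of Zg16 was -6.78 (SE 1.37, adjusted p = 0.615, limma). Tff3, a trefoil peptide that stabilises mucus, had a shared difference of -4.29 (SE 1.21), with 0.874 to 341 FPKM in PA and 17.2 to 6695 in ND. Agr2, an endoplasmic reticulum protein needed to make mucin, was above 1 FPKM in 2 of 6 PA libraries and in 5 of 6 ND libraries, where it reached 5144 (shared difference -5.54, SE 1.40). In all, 12 of 13 goblet genes were lower, with a median of -2.43. Of these, 7 had an unadjusted p under 0.05, beside 5.83% of all genes. The goblet median was -2.19 in IEL and -3.77 in LP. The goblet share of FPKM was 0.000237 to 0.187% in PA and 0.0139 to 3.89% in ND (log2 difference -3.90, exact permutation p = 0.03, adjusted p 0.17).

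Other secreted products were lower as well. Sct, the hormone secretin, was at 0 in 3 of 6 PA libraries and at most 21.9 FPKM in the others, against 19.0 to 262 FPKM in ND (shared difference -4.08, SE 0.98). Guca2a, guanylin, a peptide that drives fluid secretion, did not overlap between the diets in either layer: it was at 266, 0.62 and 637 FPKM in PA IEL against 738, 2591 and 909.7 in ND IEL. In LP, Guca2a was at 0.442 to 137 FPKM with PA milk and 231 to 7099 with normal milk (shared difference -4.82, SE 1.34, adjusted p = 0.639, limma). Of 13 Paneth cell genes 12 were lower, with a median of -3.05 in IEL and -0.33 in LP. Fam3b, a secreted cytokine-like protein, was listed at 0 in 4 of 6 PA libraries and at 6.39 to 168 FPKM in ND.

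Several genes that stood apart in both layers belong to none of the marker and pathway lists used here. Gpr160, an orphan receptor, was listed at 0 in 4 PA libraries and at 0.197 and 5.06 FPKM in the other PA libraries, against 5.9 to 33.2 FPKM in ND (shared difference -3.66, SE 0.78). Cep55, which acts in the last step of cell division, was at 0.616 FPKM or less in PA and at 2.29 to 25.9 in ND (shared difference -3.21, SE 0.68). Gtf3c3, a subunit of a factor that recruits RNA polymerase III, was at most at 0.366 FPKM in PA and at 1.44 to 8.68 in ND, with a shared difference of -2.55 (SE 0.56). Fam98a, an RNA-binding protein, was at 0.35 FPKM or less in PA and 1.84 to 21.5 in ND (shared difference -3.06, SE 0.67). All 6 PA libraries were below all 6 ND libraries for Cep55, Gtf3c3 and Fam98a, whatever the layer. Each of these 4 genes had an adjusted p of 0.615 in limma.

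At such levels a gene is a small number of reads, and a 0 can be a transcript that was not captured. Of the 12502 genes tested, 4 were under 1 FPKM in all PA libraries and at 1 or more in all ND libraries. They were Cep55, Gtf3c3, Fam98a and BC033916, the last named after its values were seen, and 0 genes were in the converse position. These 4 passed the expression filter through their ND values alone. The filter let in 174 genes under 1 FPKM in every PA library and 23 under 1 FPKM in every ND library. The counts of 4 and 0 therefore had unequal bases. Gdpd1, a lysophospholipase, was more abundant: it was at 37.1, 0.032 and 15.7 FPKM in PA IEL against 103, 138 and 81.3 in ND IEL. In LP, Gdpd1 was at 0, 0.04 and 10.2 FPKM with PA milk and 32.8, 29.1 and 45.3 with normal milk (shared difference -3.80, SE 0.92). Fhl2, a LIM-domain adaptor of transcription factors, had a shared difference of -3.62 (SE 0.89), with 0 to 18.5 FPKM in PA and 16.0 to 70.8 in ND. Cysltr2, a receptor for cysteinyl leukotrienes, was at 1.07 FPKM or less in PA and at 1.01 to 42.3 in ND (shared difference -2.32, SE 0.73). Arl4d, a small GTPase, was listed at 0 in 5 PA libraries, against 6.58 to 34.7 FPKM in ND, a range that held the sixth, PA LP 3.

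**Figure D4:**
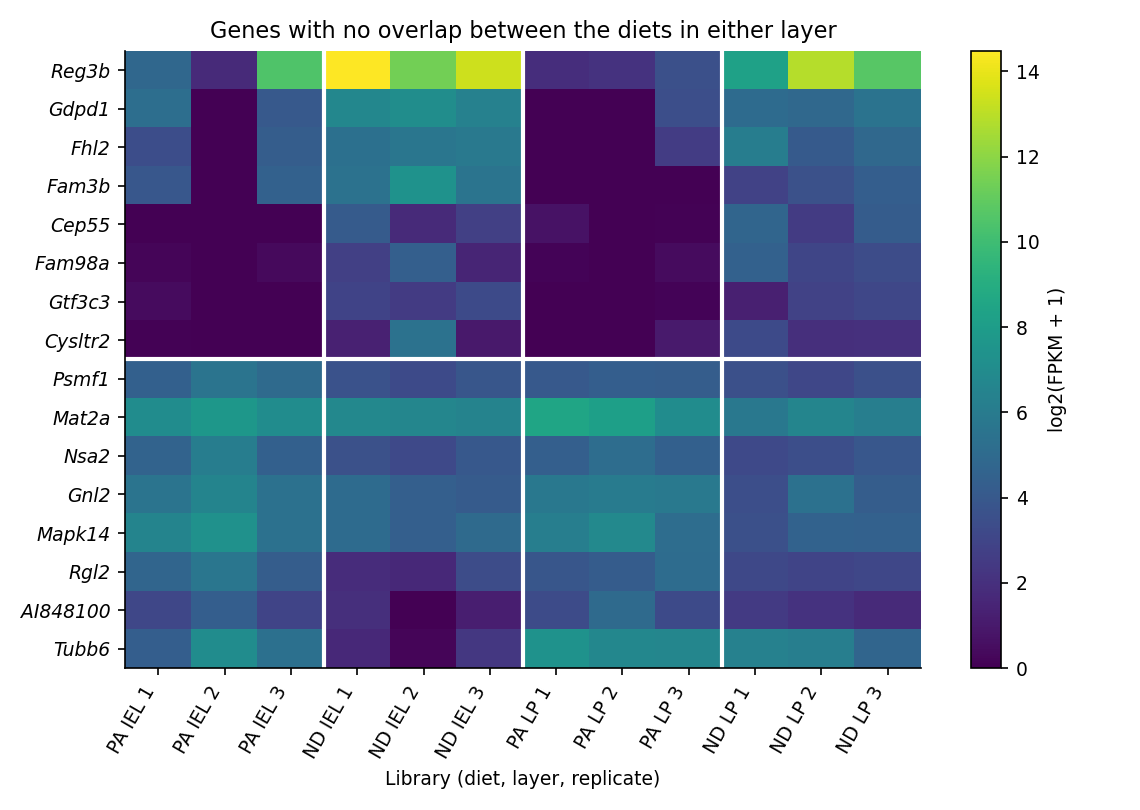
Heat map of log2(FPKM + 1) in the 12 libraries (columns) for 16 genes (rows) chosen by the size of the gap between the diets, the upper 8 lower and the lower 8 higher in PA in both layers. Except for Reg3b, which is at 2.25 FPKM or more in every PA library, the upper genes are near 0 in several PA libraries. The lower genes are expressed in nearly every library at different levels.

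Fewer genes were higher than lower in PA over all libraries, a balance that was near even without the PA libraries numbered 2 (6134 higher and 6280 lower). H2-T23 encodes Qa-1, a non-classical class I molecule recognised by inhibitory receptors of NK and T cells. It was at 262, 241 and 138 FPKM in PA IEL against 41.2, 201 and 52.9 in ND IEL. In LP, H2-T23 was at 281, 303 and 396 FPKM with PA milk and 115, 92.0 and 52.9 with normal milk, and the groups overlapped only through ND IEL 2. Its shared difference was 1.69 (SE 0.45), with an adjusted p of 0.619 in limma, the lowest of the genes named as higher. Of the 18 genes of class I presentation, H2-T23 included, 11 were lower, with a median of -0.18, which was 0.31 without the PA libraries numbered 2.

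Mapk14, the stress kinase p38α, was higher in every PA library of both layers. It was at 93.4, 161 and 42.0 FPKM in PA IEL against 32.4, 20.2 and 30.6 in ND IEL. In LP, Mapk14 was at 73.5, 111 and 35.7 FPKM in PA and at 10.6, 22.3 and 21.3 in ND. The highest PA values were those of the libraries numbered 2, and the shared difference was 1.76 (SE 0.57, adjusted p = 0.701, limma). Tubb6, a β-tubulin, was at 18.8 to 129 FPKM in PA IEL against 0.152 to 4.14 in ND IEL, with a smaller gap in LP (98.0 to 167 against 25.3 to 81.8). Rgl2, which activates Ral GTPases, was at 13.7 to 51.4 FPKM in PA and 2.14 to 9.22 in ND (shared difference 1.97, SE 0.72). Mat2a, which makes the methyl donor S-adenosylmethionine, was at 129 to 364 FPKM in PA and 54.8 to 109 in ND (shared difference 1.16, SE 0.42). For Mapk14, Rgl2 and Mat2a alike, all 6 PA libraries lay above all 6 ND libraries. Psmf1, a regulator of the proteasome, and Nsa2 and Gnl2, which act in assembly of the large ribosomal subunit, also stood apart, with shared differences of 1.12, 1.30 and 1.40.

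Some genes known from myeloid cells and from haem handling had higher values. S100a9, a subunit of calprotectin, was at 104, 513 and 132 FPKM in PA IEL against 43.5, 88.0 and 3.94 in ND IEL. In LP, S100a9 was at 250.3, 449 and 65.3 FPKM with PA milk and 62.8, 39.5 and 70.2 with normal milk, so that PA LP 3 lay within the ND range (shared difference 2.31, SE 0.72). Tlr8, a receptor for RNA in endosomes, was listed at 0 in 5 of 6 ND libraries and at 3.8 to 40.9 FPKM in 5 of 6 PA libraries. Hmox1, which breaks down haem, was at 263, 1735 and 367 FPKM in PA IEL against 73.7, 629 and 87.7 in ND IEL (shared difference 1.78, SE 0.65). The libraries numbered 2 held the highest Hmox1 in both PA groups and in ND IEL. Among 21 macrophage and dendritic cell genes 14 were higher, beside 33.1% of all genes, and 2 of these had an unadjusted p under 0.05, beside 0.696%. Their median was 0.32, which was 0.14 without ND IEL 3 and 0.08 without the PA libraries numbered 2. The abundant member Lyz2, lysozyme, had a shared difference of -0.61 (SE 0.92). Of 8 haem and iron genes 6 were higher, with a median of 0.48, or 0.19 without the PA libraries numbered 2. Between 14 and 18 of these 21 reached 1 FPKM in a PA library and 15 to 19 in an ND library. The lineage markers of the sort were meant to leave out myeloid cells, and the part of myeloid RNA in these values was not tested.

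The genes that define ILC3s had medians of opposite sign in the layers. Of 24 tested, 18 were lower in PA (75%), near the 66.9% of all genes. Of these, 5 had an unadjusted p under 0.05, beside 5.83% of all genes. The median was 0.35 in IEL and -1.80 in LP. Without the PA libraries numbered 2 the shared median of -0.78 became 0.09. Their share of FPKM was 0.455, 0.0556 and 0.155% in PA IEL against 0.0707, 0.0441 and 0.152% in ND IEL. In LP, the ILC3 share was 0.0566, 0.0212 and 0.123% with PA milk and 0.16, 1.07 and 0.187% with normal milk, with no overlap (log2 difference over both layers -0.78, exact permutation p = 0.41). Genes of other lymphocytes had lower medians: the 16 T cell receptor and CD3 genes had -1.63, with 14 lower, and -0.63 with 11 lower without the PA libraries numbered 2. The 15 B and plasma cell genes had -1.09, with 13 lower, but 0.46 in IEL and -2.89 in LP, and the shared median was -0.61 without those libraries.

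Cytokine genes were lower in PA about as often as all genes tested, of which 66.9% were lower. Of 25 interleukins and effector cytokines, 18 were lower and the median was -1.04. Of these, 4 had an unadjusted p under 0.05, beside 5.83% of all genes. Leaving out the PA libraries numbered 2, 16 were lower and the median was -0.58. Il17a was at 0.081 FPKM or less in every PA library, at 8.15, 0 and 12.8 in ND IEL and at 0, 217 and 43.5 in ND LP (shared difference -3.34, SE 1.09, adjusted p = 0.701, limma). Il17f followed it, at 0.283 FPKM or less in PA and up to 1637 in ND LP 2 (shared difference -4.41, SE 1.42). Both Il17a and Il17f were under 1 FPKM in every PA library and passed the expression filter through their ND values alone. Their differences could hardly have been positive, and counts of lower genes that hold them have unequal bases. Il1b, a cytokine released through the inflammasome, was at 0.163 FPKM or less in 5 PA libraries and 72.8 in PA LP 3. In ND, Il1b was at 10.1, 0 and 8.18 FPKM in IEL and 337, 48.4 and 60.2 in LP (shared difference -3.32, SE 1.13). The ranges of Il17a and Il17f met at 0 or near it, since at least 1 ND library held almost none of each. For Il1b the IEL ranges met near 0 through ND IEL 2. In LP its groups overlapped at higher levels, with PA LP 3 at 72.8 FPKM within the ND range of 48.4 to 337.

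Other genes whose proteins the study followed had shared differences from -1.67 to 0.25. Id2, a repressor needed for all innate lymphoid cells, stood apart in both layers but in opposite directions, at 1.48 in IEL and -1.64 in LP, so that its shared difference was -0.08 (SE 0.51). The difference between the layers, -3.12 for LP minus IEL, had an adjusted p of 1 in limma. Cxcr6, a chemokine receptor of tissue lymphocytes, was at 1.30 in IEL and -4.65 in LP, with a shared difference of -1.67 (SE 1.62), and Ccr6 was at -1.38 (SE 1.45). The receptor gene Il7r had a shared difference of -0.01 (SE 1.28). Ret, Nlrp3 and Gata3 were at 0.11, 0.02 and 0.25, and Il5 at -1.09, and Il13 reached 1 FPKM in 1 library and was not tested. None of these had an adjusted p under 0.78 in limma.

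Metabolic lists were lower in PA to different degrees. Of 25 genes of cholesterol synthesis 23 were lower, with a median of -1.42 (-1.09 in IEL and -1.74 in LP). Of these, 6 had an unadjusted p under 0.05, beside 5.83% of all genes. Hmgcs1, an early enzyme of the pathway, had a shared difference of -1.84 (SE 0.78), while Sc4mol, a sterol demethylation enzyme, was at 0.02 in IEL and -4.33 in LP. Fatty acid oxidation genes were lower in 23 of 28 cases (median -0.72) and fatty acid synthesis genes in 16 of 23 (median -0.32, near that of all genes). The cholesterol median was -0.59 and that of fatty acid oxidation -0.30 without the PA libraries numbered 2.

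Broadly expressed genes differed little. The 30 genes common to leukocytes had a median of -0.14, with 12 higher and 18 lower. Without the PA libraries numbered 2 the median was -0.26, with 25 lower. Their median SE was 0.49, against 0.86 over all genes, so they do not set the scale for noisier genes. Abundant members had small errors, such as Pfn1 at -0.18 (SE 0.16) and Cfl1 at -0.19 (SE 0.16). Both bind actin. Cytosolic ribosomal protein genes were higher in 68 of 81 cases, beside 33.1% of all genes, with a median of 0.18. Of these, 1 had an unadjusted p under 0.05, beside 0.696% of all genes. Their median was 0.04 without the PA libraries numbered 2. Heat shock genes were higher in 8 of 13 cases (median 0.28), and immediate early genes were lower in 26 of 31 (median -0.53), a median that became 0.46 without the PA libraries numbered 2.

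**Figure D5:**
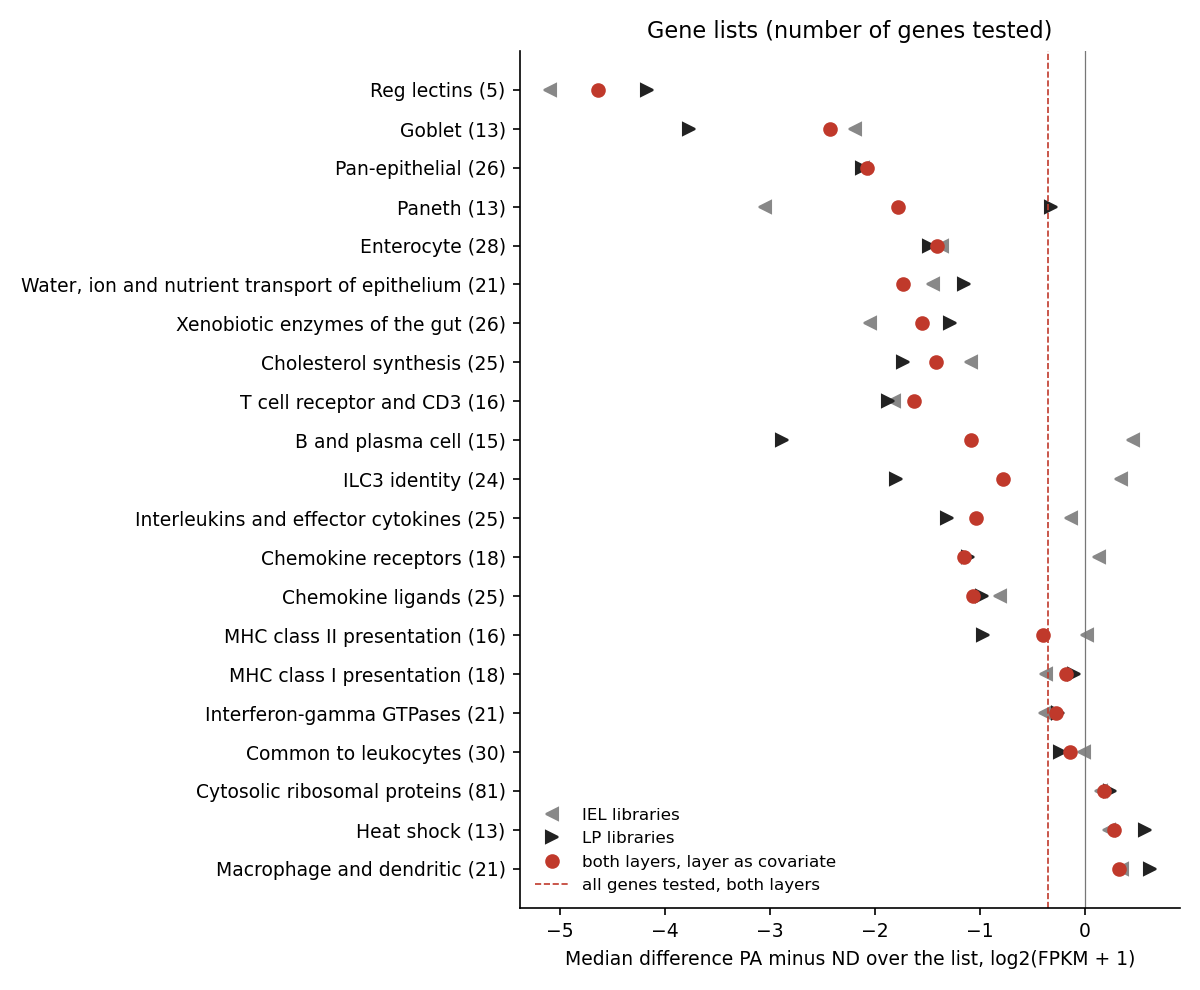
Median difference between the diets (PA minus ND, log2(FPKM + 1)) over 21 gene lists, for the IEL libraries (grey), the LP libraries (black) and both layers together (red circles), with the dashed line at the median of all genes tested, -0.36. Reg lectin, goblet and pan-epithelial lists lie furthest to the left, at -4.63, -2.43 and -2.08. The B cell, ILC3, chemokine receptor and MHC class II lists have medians of opposite sign in IEL and LP.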

How the data were processed

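RNA of sorted ILC3s was sequenced in 12 libraries (3 for each of the 4 combinations of milk and layer). Per the submitters' processing notes, the authors used TopHat2 2.1.1, Bowtie2 2.2.8.0, SAMtools 0.1.18, Cufflinks 2.2.1 and Cuffdiff 2.2.1 with mm10, and deposited FPKM values per gene. A second deposited table holds a score, counts that had been scaled and rounded (9376529 to 11710874 per library), so no test for raw counts was run on it. Columns with the authors' own comparisons were not used.

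The values were tested as log2(FPKM + 1) with limma 3.58.1 (R 4.3.3; mean-variance trend, diet and layer as terms), with Benjamini-Hochberg adjustment over the 12502 genes and a threshold of 0.05. Exact permutations were two-sided, with diets permuted within layers over 400 arrangements (smallest p 0.005). Shares add 0.001% before the log. The step between low FPKM values, equal to 1 read, gave the depth, with 95.2 to 99.1% of low values whole within 0.05. Depth limits precision by counting error only, as no molecular identifiers were used.

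Named genes were those with the smallest p (10 in each direction, leaving out 1 microRNA), up to 8 in each direction with the widest gap between the diets, up to 4 of the most abundant of each list, and genes of proteins that the study measured, of which 1 is not reported here. The members and the 45 lists were chosen with earlier results of these data known. Alternatives changed the filter, pseudocount, scaling, trend, weights, model and libraries. Coordinates are from GENCODE vM21 and promoters from RefSeq (Python 3.11.15).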

Additional observations from a re-analysis of the deposited data

Results flagged for a closer look

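Id2 stood apart in opposite directions in the layers. In every PA IEL library it was above every ND IEL library, and in every PA LP library below every ND LP library, with a difference between the layers of -3.12 on the log2 scale (LP minus IEL). It did not pass the threshold when tested as an interaction across all genes (limma, adjusted p = 1), and 30 of 12502 genes stood apart in this opposite manner. In 0 of 12502 genes was the interaction past an adjusted p of 0.05 in limma, and in 292 the unadjusted p was under 0.05.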

How the results depend on the processing

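Reg3b was lower in PA under every alternative run, but its call was not kept under most. The number of genes called, 1, became 0 with 4 group means, with no filter, with no mean-variance trend, with a pseudocount of 0.1, with the layers averaged within a replicate number, without the PA libraries numbered 2 and without all 4 libraries numbered 2 (the last chosen after seeing the data). Reg3b was then at -7.76 (adjusted p 0.0514), -7.76 (0.796), -7.76 (0.29), -7.99 (0.0948), -7.76 (0.101), -6.67 (0.749) and -6.53 (0.397). With voom on the reads worked out from FPKM steps, 2 genes were called, Dock5 and Rn45s, and Reg3b was at -8.03 (adjusted p 0.999). With the replicate number as a block 2 genes were called, Reg3b and Zg16. Deviations from the group means correlated at -0.0312 to 0.06 between IEL and LP libraries of the same diet and number. Correlations near 0 do not show that such libraries came from different mice, and whether they share a mouse is not stated. The main fit did not pair them. The permutation of diets over mouse labels (20 arrangements, chosen after seeing the data) cannot go below p = 0.1. Leaving out each library gave 0 to 1 genes called and Reg3b at -8.87 to -6.92. The cause of these changes was not tested.

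Genes apart in both layers numbered 59 lower, 23 higher and 30 opposite. With fewer libraries, which makes separation easier, they were 74 to 198, 26 to 55 and 45 to 109 with each library left out, 114, 168 and 222 without the PA libraries numbered 2, and 396, 408 and 584 without all 4 numbered 2. Without the PA libraries numbered 2, 3255 genes were lower and 3036 higher in both layers. Scaling on genes common to leukocytes left 62.4% of genes lower, with 40 lower genes apart in both layers.

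The shared difference changed sign for Reg1 (0.41 with voom, -1.87 to 0.05 leaving out libraries), Cxcr6 (0.14) and Ccr6 (0.13) without the PA libraries numbered 2. Id2 was at 0.01 (voom), 0.43 (library weights), 0.07 (leukocyte scaling), 0.28 and 0.29 (without the PA or all 4 libraries numbered 2) and -0.42 to 0.26 leaving out libraries. Il7r was at 1.25 (weights), 0.03 (leukocyte scaling), 1.98 and 2.58, and -0.68 to 1.10 in the same order. In the shares of marker lists 0 of 17 passed the adjusted threshold under every alternative run.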

Other observations

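The lists that follow were not described above. Their differences are PA minus ND on the log2(FPKM + 1) scale, beside a median of -0.36 and 66.9% lower over all genes. Genes of the gut barrier's immune effectors were lower in 13 of 14 cases (median -1.28), and stem and progenitor genes in 7 of 8 (median -1.14), with medians of -0.69 and -0.64 without the PA libraries numbered 2. Both enteroendocrine genes tested were lower (median -2.89). Chemokine receptors had a median of -1.15 with 13 of 18 lower, and chemokine ligands -1.07 with 19 of 25, which were -0.42 and -0.54 without those libraries. Of 23 genes of the unfolded protein response, whose products fold and export proteins, 20 were lower with a median of -0.58, but 0 had an unadjusted p under 0.05 in limma. Toll-like receptor and inflammasome genes were lower in 22 of 28 cases (median -0.61), type I interferon response genes in 20 of 28 (median -0.44) and tissue residency and homing genes in 14 of 19 (median -0.77). These medians changed sign without the PA libraries numbered 2, to 0.08 for the unfolded protein response, 0.16 for Toll-like receptors and the inflammasome, 0.26 for type I interferon and 0.13 for residency and homing. Genes of ILC2s had a median of 0.17 in IEL and -1.59 in LP, and those of ILC1s and NK cells -2.01 and 0.38.

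Housekeeping lists stayed close to 0. The respiratory chain had a median of -0.26 with 57 of 78 genes lower, mitochondrial ribosomal proteins -0.05 with 40 of 73 and the proteasome -0.03 with 23 of 41. Cell cycle and DNA replication genes had a median of 0.09 with 17 of 30 higher. Genes that sense free fatty acids and lipids had a median of 0.21, with 6 of 11 higher and 0 at an unadjusted p under 0.05 in limma.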
